A study of Rattus norvegicus with 288 samples.

Results

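The genes described here encode the subunits of the mitochondrial respiratory chain and of the ATP synthase. They were chosen by symbol alone, from probe sets annotated with a single gene: symbols that begin with Ndufa, Ndufb, Ndufc, Ndufs or Ndufv and a digit, Sdha to Sdhd, symbols that begin with Uqcr, Cox4 to Cox8 and Atp5. This gave 79 of the 14218 genes named on the Affymetrix rat genome array, read by 88 probe sets, of which the one with the highest mean in a tissue was used. By complex they were 33 genes of complex I, 4 of complex II, 7 of complex III, 19 of complex IV (with Ndufa4, now counted there, and its paralogue Ndufa4l2) and 16 of the ATP synthase, with its inhibitor Atp5if1. Another 7 probe sets carried a subunit symbol together with a second symbol and were not counted as members, among them those of Atp5mc1, Atp5mc2, Cox7a2, Uqcrb, Ndufs5 and Ndufa10 and the brighter set for Cox5a.

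The arrays came from 96 male Sprague-Dawley rats, each of which gave bone marrow flushed from the femur, the apex of the heart with tissue of both ventricles, and liver. Each rat received 1 intravenous and 1 oral dose. The intravenous dose was temsirolimus at 0.3 mg/kg, an inhibitor of the kinase mTOR, or its vehicle (TEM vehicle), and the oral dose was sunitinib at 5 mg/kg, sorafenib at 25 mg/kg, sterile water (the vehicle of sunitinib) or a mixture of Pluronic F68, propylene glycol and PEG400 (the vehicle of sorafenib). Sunitinib and sorafenib are inhibitors of receptor tyrosine kinases and, for sorafenib, of RAF kinases. This makes 8 treatments: temsirolimus with sorafenib, sorafenib alone, temsirolimus with sunitinib, sunitinib alone, temsirolimus with either oral vehicle, and TEM vehicle with either oral vehicle. Tissues were taken 1, 6 and 24 h after dosing from 4 rats per treatment and time, which gave 96 arrays per tissue and 288 in all. The rats were 7 to 8 weeks old.

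The respiratory chain passes electrons from NADH (complex I) and succinate (complex II, also an enzyme of the tricarboxylic acid cycle) through ubiquinone to complex III, then through cytochrome c to complex IV, where oxygen is reduced. Complexes I, III and IV pump protons across the inner mitochondrial membrane, and the ATP synthase lets them flow back through a rotor of c subunits to drive its F1 head. The genes measured here lie in the nucleus. The remaining subunits, encoded by mitochondrial DNA, are not among them. The heart, which contracts without pause, is known for its dense mitochondria, the liver for an intermediate content, and several small subunits of complex IV exist as a form made in heart and skeletal muscle and a form made in other tissues.

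Promoter sequences are shown for members on which the tissue and drug results turn: the muscle forms Cox6a2, Cox8b and Cox7a1, the general form Cox8a, and Atp5mc3, a c-subunit gene that fell after sorafenib. They come from RefSeq on the rat build GRCr8 and run 5′ to 3′ from 250 bases before to 50 bases after the annotated start. Of the 79 members, 71 had such a sequence. Capitals mark matches to 6 motifs, searched on both strands: nuclear respiratory factor 1 (GCGCA, any base, GCGC), estrogen-related receptor (TNAAGGTCA), YY1 (AAGATGGC), MEF2 (CTA, any 4 bases, TAG), an E-box (CAGCTG) and a TATA box (TATAAA). No marked matches overlap.
Cox6a2, chr1:192219667-192219966, minus strand: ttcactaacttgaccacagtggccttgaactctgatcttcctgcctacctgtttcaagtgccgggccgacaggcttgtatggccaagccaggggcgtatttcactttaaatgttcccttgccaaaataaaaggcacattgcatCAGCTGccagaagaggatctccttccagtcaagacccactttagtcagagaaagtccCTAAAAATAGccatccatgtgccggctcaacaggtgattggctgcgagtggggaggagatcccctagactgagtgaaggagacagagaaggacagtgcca
Cox8b, chr1:205408224-205408523, minus strand: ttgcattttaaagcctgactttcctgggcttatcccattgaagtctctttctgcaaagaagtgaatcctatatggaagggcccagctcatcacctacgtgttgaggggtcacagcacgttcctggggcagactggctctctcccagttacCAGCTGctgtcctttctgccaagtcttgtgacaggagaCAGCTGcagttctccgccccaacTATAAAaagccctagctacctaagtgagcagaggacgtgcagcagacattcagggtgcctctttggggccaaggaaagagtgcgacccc
Cox7a1, chr1:94568966-94569265, plus strand: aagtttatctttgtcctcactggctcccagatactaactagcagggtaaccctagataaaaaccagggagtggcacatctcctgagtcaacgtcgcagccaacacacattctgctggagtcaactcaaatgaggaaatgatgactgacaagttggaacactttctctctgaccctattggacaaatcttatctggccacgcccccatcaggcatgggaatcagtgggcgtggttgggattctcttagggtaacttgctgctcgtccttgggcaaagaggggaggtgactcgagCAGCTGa
Cox8a, chr1:213833574-213833873, minus strand: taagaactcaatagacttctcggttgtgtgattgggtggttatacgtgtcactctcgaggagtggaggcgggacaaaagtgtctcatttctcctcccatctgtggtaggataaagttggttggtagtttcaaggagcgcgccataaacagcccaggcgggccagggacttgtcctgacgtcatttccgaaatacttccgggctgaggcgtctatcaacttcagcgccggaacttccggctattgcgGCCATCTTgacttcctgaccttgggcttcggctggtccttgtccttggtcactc
Atp5mc3, chr3:79220615-79220914, minus strand: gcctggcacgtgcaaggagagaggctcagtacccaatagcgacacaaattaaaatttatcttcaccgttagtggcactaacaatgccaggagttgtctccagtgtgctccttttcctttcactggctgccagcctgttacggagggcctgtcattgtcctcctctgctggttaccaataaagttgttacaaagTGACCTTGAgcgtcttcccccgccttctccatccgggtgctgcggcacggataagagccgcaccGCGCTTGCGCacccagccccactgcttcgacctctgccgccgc

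In the Cox6a2 window the capitals are an E-box and a MEF2 motif, in Cox8b 2 E-boxes and a TATA box, and in Cox7a1 an E-box. Cox8a carried a YY1 motif, and Atp5mc3 carried a nuclear respiratory factor 1 motif and an estrogen-related receptor motif. Over the members, YY1 letters were found in 16 of 71 windows (22.5%), against 3.17% of all 33469 RefSeq windows of this length, and nuclear respiratory factor 1 letters in 13 (18.3%), against 4.25% of all windows. Estrogen-related receptor letters were found in 3 member windows (4.23%), against 1.2% of all. The other motifs were found at shares closer to those of all windows: 11 windows with an E-box (15.5%, against 15.1% of all), 8 with a TATA box (11.3%, against 14.2%) and 2 with a MEF2 motif (2.82%, against 3.84%). These counts describe letters in the windows, with no test.

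The tissues were first described in the vehicle rats, 24 arrays per tissue over both oral vehicles and the 3 times. It is not stated whether the tissues were normalized together, so levels between tissues are a description with no test, and in whole tissue fewer cells of a type and less RNA per cell cannot be told apart. The respiratory chain genes were brightest in the heart and dimmest in the bone marrow. In 70 of 79 members every heart array lay above every liver array and in 0 below, while the same separation held for 3110 genes above (21.9%) and 3714 below (26.1%) of all 14218. Against bone marrow, every heart array lay higher in 75 members (35.4% of all genes) and lower in 1 (23.4% of all genes). Every liver array lay above every marrow array in 67 members (40.4% of all genes) and below in 1 (20.9% of all genes). The median difference over members was 0.93 log2 units for heart minus liver (all genes -0.07), 1.98 for heart minus marrow (all genes 0.23) and 0.89 for liver minus marrow (all genes 0.34). A renewed quantile normalization over all arrays left the counts for the heart near these (72 members above liver, 74 above marrow), but left only 36 members higher in liver than in marrow, with 5 lower.

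By complex, the median difference for heart minus marrow was 2.08 in complex I, 2.32 in complex II, 2.11 in complex III, 1.44 in complex IV and 1.88 in the ATP synthase. All 33 members of complex I, all 4 of complex II and all 7 of complex III were separated. For heart minus liver the medians ran from 0.66 in complex II to 1.12 in complex III, with 0.97 in complex I, 0.70 in complex IV and 0.86 in the ATP synthase. For liver minus marrow complex II had the highest median at 1.62, with 1.08 in complex I, 0.86 in complex III, 0.79 in the ATP synthase and 0.62 in complex IV. Among single genes outside complex IV the widest gaps were those of Ndufv3, an accessory subunit of the NADH-binding module, which differed by 3.58 between heart and marrow and by 2.79 between liver and marrow, of Ndufs1, the large iron-sulfur subunit of complex I (3.23 for heart minus marrow), and of Sdha, the flavoprotein of complex II (3.00 for heart minus marrow).

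**Figure D1:**
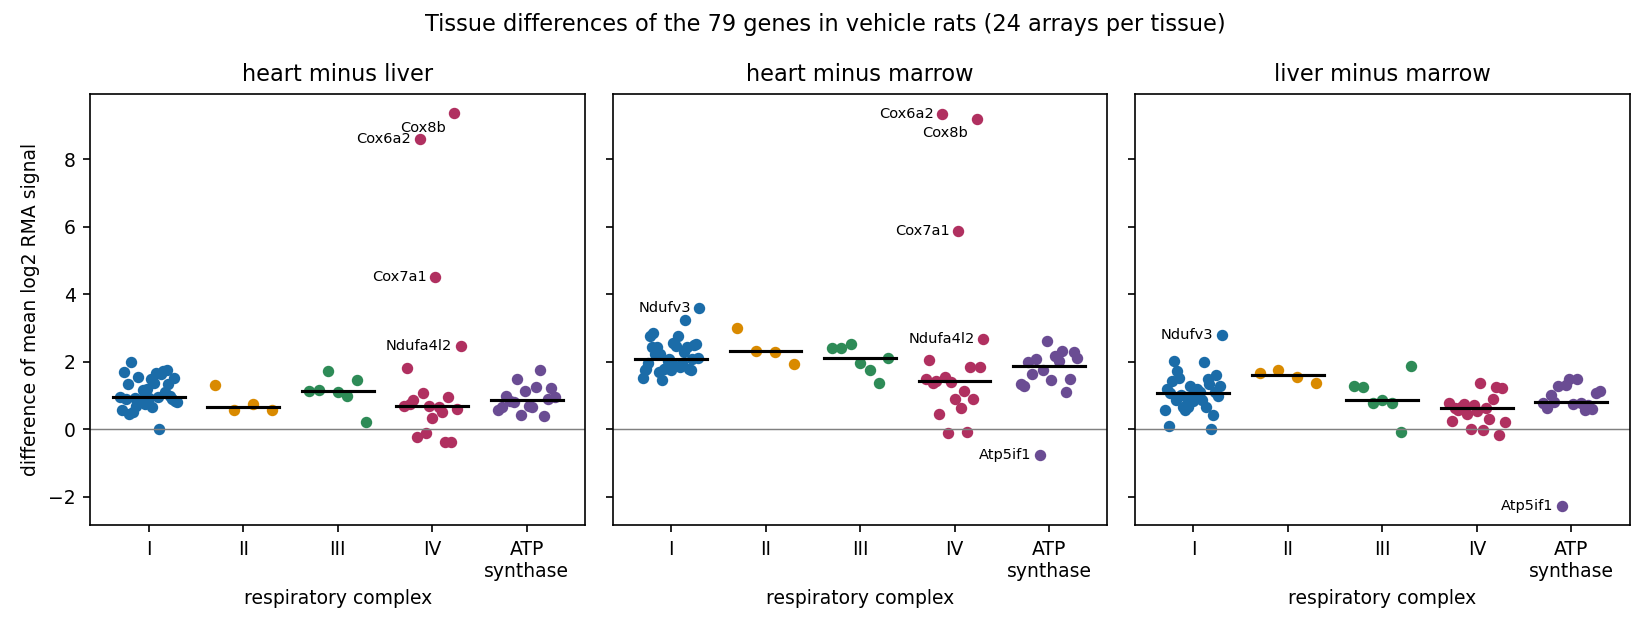
Each point is 1 of the 79 genes, placed by its complex (x axis) and by the difference of its mean log2 RMA signal between 2 tissues of vehicle rats (y axis, 24 arrays per tissue); bars are medians of a complex. Most points lie above 0 in each panel, Cox6a2, Cox8b and Cox7a1 stand far above the rest for the heart, and Atp5if1 is at -0.76 for heart minus marrow and -2.27 for liver minus marrow.

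The widest tissue differences were those of the muscle forms of complex IV subunits. Cox6a2 had a lowest, median and highest signal of 14.58, 14.63 and 14.69 in heart, 5.73, 6.03 and 6.33 in liver and 4.97, 5.27 and 5.64 in marrow. Cox8b had 14.46, 14.54 and 14.61 in heart, 4.94, 5.16 and 5.48 in liver and 5.04, 5.31 and 5.86 in marrow. Both genes were near the top of the scale in every heart array and at the dim end in the other tissues, where the liver and marrow ranges of Cox8b overlapped. Cox7a1 had 10.51, 11.29 and 11.81 in heart, 6.57, 6.76 and 6.95 in liver and 5.19, 5.37 and 5.64 in marrow. Its order was heart, liver, marrow with no overlap, and its spread within the heart was wider than that of the other muscle forms.

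The general forms were bright in all tissues. Cox6a1 had 12.56, 12.87 and 13.01 in heart, 12.95, 13.08 and 13.25 in liver and 12.28, 12.39 and 12.57 in marrow. Cox8a had 13.14, 13.32 and 13.56 in heart, 13.55, 13.68 and 13.90 in liver and 12.31, 12.43 and 12.53 in marrow. Heart and liver overlapped in both genes, with the higher median in liver. Cox4i1, the general form of the largest nuclear-encoded subunit of complex IV, had 14.15, 14.26 and 14.31 in heart, 13.26, 13.57 and 13.84 in liver and 12.62, 12.77 and 12.89 in marrow. Cox4i2, a form known for its rise under low oxygen, was separated only in the heart, at 6.82, 7.08 and 7.41, against 4.92, 5.25 and 5.52 in liver and 4.85, 5.02 and 5.34 in marrow.

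Ndufa4 and Ndufa4l2 had the same order. Ndufa4 had medians of 14.02 in heart, 13.43 in liver and 12.17 in marrow, with no overlap. Ndufa4l2, known as a target of hypoxia-inducible factor 1, had a median of 8.23 in heart (7.92 to 8.45), against 5.75 in liver and 5.54 in marrow, whose ranges overlapped. Cox7a2l, which helps join complexes III and IV into supercomplexes, had medians of 12.26 in heart, 11.59 in liver and 11.65 in marrow, with liver and marrow overlapping. Cox6b1 had medians of 14.03 in heart, 12.93 in liver and 12.48 in marrow, and Cox7b 14.34 in heart, 13.86 in liver and 13.18 in marrow. The testis forms Cox6b2 and Cox7b2 were dim and overlapped in all tissues. Of the c-subunit genes only Atp5mc3 had a probe set of its own, with medians of 14.42 in heart, 13.98 in liver and 12.66 in marrow.

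Atp5if1 was the member that went against the others. It encodes the inhibitor that stops the ATP synthase from running in reverse, and is also known from zebrafish for a role in heme synthesis. Its lowest, median and highest signals were 11.56, 11.78 and 12.21 in heart, 9.97, 10.26 and 10.58 in liver and 12.38, 12.56 and 12.80 in marrow. The order was marrow, heart, liver, and no ranges overlapped. It was the only member below for the heart over marrow and for the liver over marrow.

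**Figure D2:**
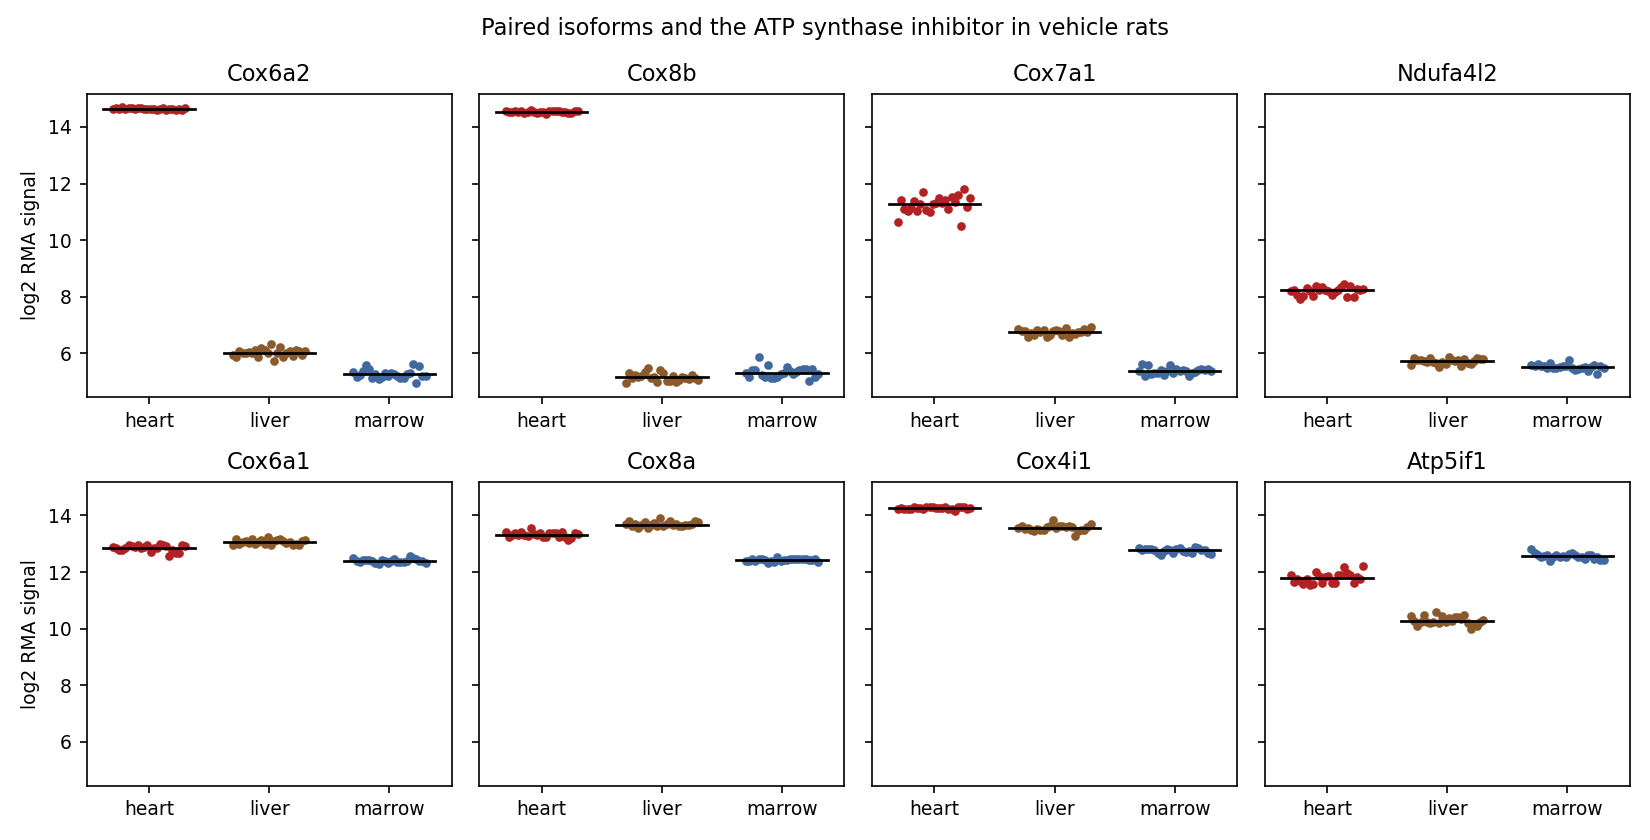
Each point is the log2 RMA signal (y axis) of 1 array of a vehicle rat, in heart, liver and marrow (x axis), for the muscle forms, their general partners, Ndufa4l2 and Atp5if1; bars are medians of 24 arrays. Cox6a2 and Cox8b stand above 14 in every heart array and below 7 elsewhere, while Atp5if1 is highest in marrow.

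In all, the heart and liver ranges of 9 members overlapped: Cox5a, Cox6a1, Cox6b2, Cox6c-ps1, Cox7b2, Cox8a, Ndufa11, Ndufc1 and Uqcrq. For Cox5a the single-symbol probe set was dim, and the brighter set it shares with another symbol averaged 14.15 in heart, 13.11 in liver and 13.02 in marrow. Mean signals under 6 were seen in 7 members in marrow, 2 in heart and 5 in liver, all of complex IV, and such dim sets carry little measure of change.

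Between rats of 1 group the members varied little: the median over genes of the within-group SD was 0.147 log2 units in marrow, 0.0821 in heart and 0.142 in liver. 5 arrays stood apart from the rest and bear on these numbers. The mean signal over the members was 10.61 in the marrow array of rat 4M45 (all marrow arrays 10.61 to 11.04, median 10.88), 12.61 in the heart array of rat 6M68 and 13.15 in that of rat 4M46 (all heart arrays 12.61 to 13.19, median 13.03), and 10.95 in the liver array of rat 7M78 (all liver arrays 10.95 to 11.89, median 11.82). The fifth was the liver array of rat 4M48, which did not stand out in this mean, as its group ran from 11.765 to 11.822. The paper names this array and the marrow array of 4M45 as potential outliers in array quality. The 5 are a fixed list, not the outcome of 1 rule applied to all arrays. The heart array with the highest mean, 13.19, is not among them, so counts without the 5 depend on this choice. In the heart array of 6M68 the hepatocyte markers averaged 13.999, against a median of 6.29 over heart arrays, and its cardiac markers averaged 12.75, against a median of 13.59. In the marrow array of 4M45 the erythroid markers averaged 11.95 (median 13.22) and the neutrophil markers 12.21 (median 13.41). The cause of these differences was not tested, and results are given with and without these arrays where they matter.

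The members also moved together between arrays of a group. The mean correlation of members' residuals over pairs of genes was 0.235 in marrow, 0.390 in heart and 0.451 in liver over 96 arrays each, and without the 5 arrays it was 0.411 in marrow, 0.175 in heart and 0.184 in liver, with means under 0.03 over all genes. These points share an array and its normalization. In marrow the mean signal of the members was higher in the 2 rats of the first array set than in the 2 of the second in 23 of 24 groups, by a median of 0.094. The median was -0.022 in heart and 0.001 in liver. The array set is a term of the fit. The methods state that each group was dosed over 2 days, and which rats were dosed together is not given, so array set and dosing day cannot be told apart.

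The largest within-group SDs were those of Sdhb in marrow and Cox5a in heart. In marrow Sdhb, the iron-sulfur subunit of complex II, had an SD of 0.503, and its value in the array of 4M45 was 6.84, against a median of 11.54. Ndufb8 was at 6.72 and Cox7c at 9.07 in the same array. In heart the dim set of Cox5a had an SD of 0.417, with values of 7.17 in rat 8M93 to 9.51 in rat 3M28, and Cox7a1 an SD of 0.297, with 10.34 in rat 6M68 to 11.84 in rat 5M57. Cox6a2 and Cox8b, with SDs of 0.363 and 0.353 in marrow, reached 8.44 and 8.28 in rat 5M51, given temsirolimus with sunitinib and killed at 6 h, and 6.68 and 6.98 in rat 5M52 of the same group. The skeletal muscle markers averaged 9.99 and 8.35 in those arrays, against a marrow median of 5.45, while cardiac markers stayed at 5.07 and 5.19. In liver the highest Cox8b (6.29) and Cox6a2 (7.21) values were those of rat 4M38, whose skeletal muscle markers averaged 7.90, against a liver median of 6.02. The part of these other cells in the values of the 2 genes was not tested.

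**Figure D3:**
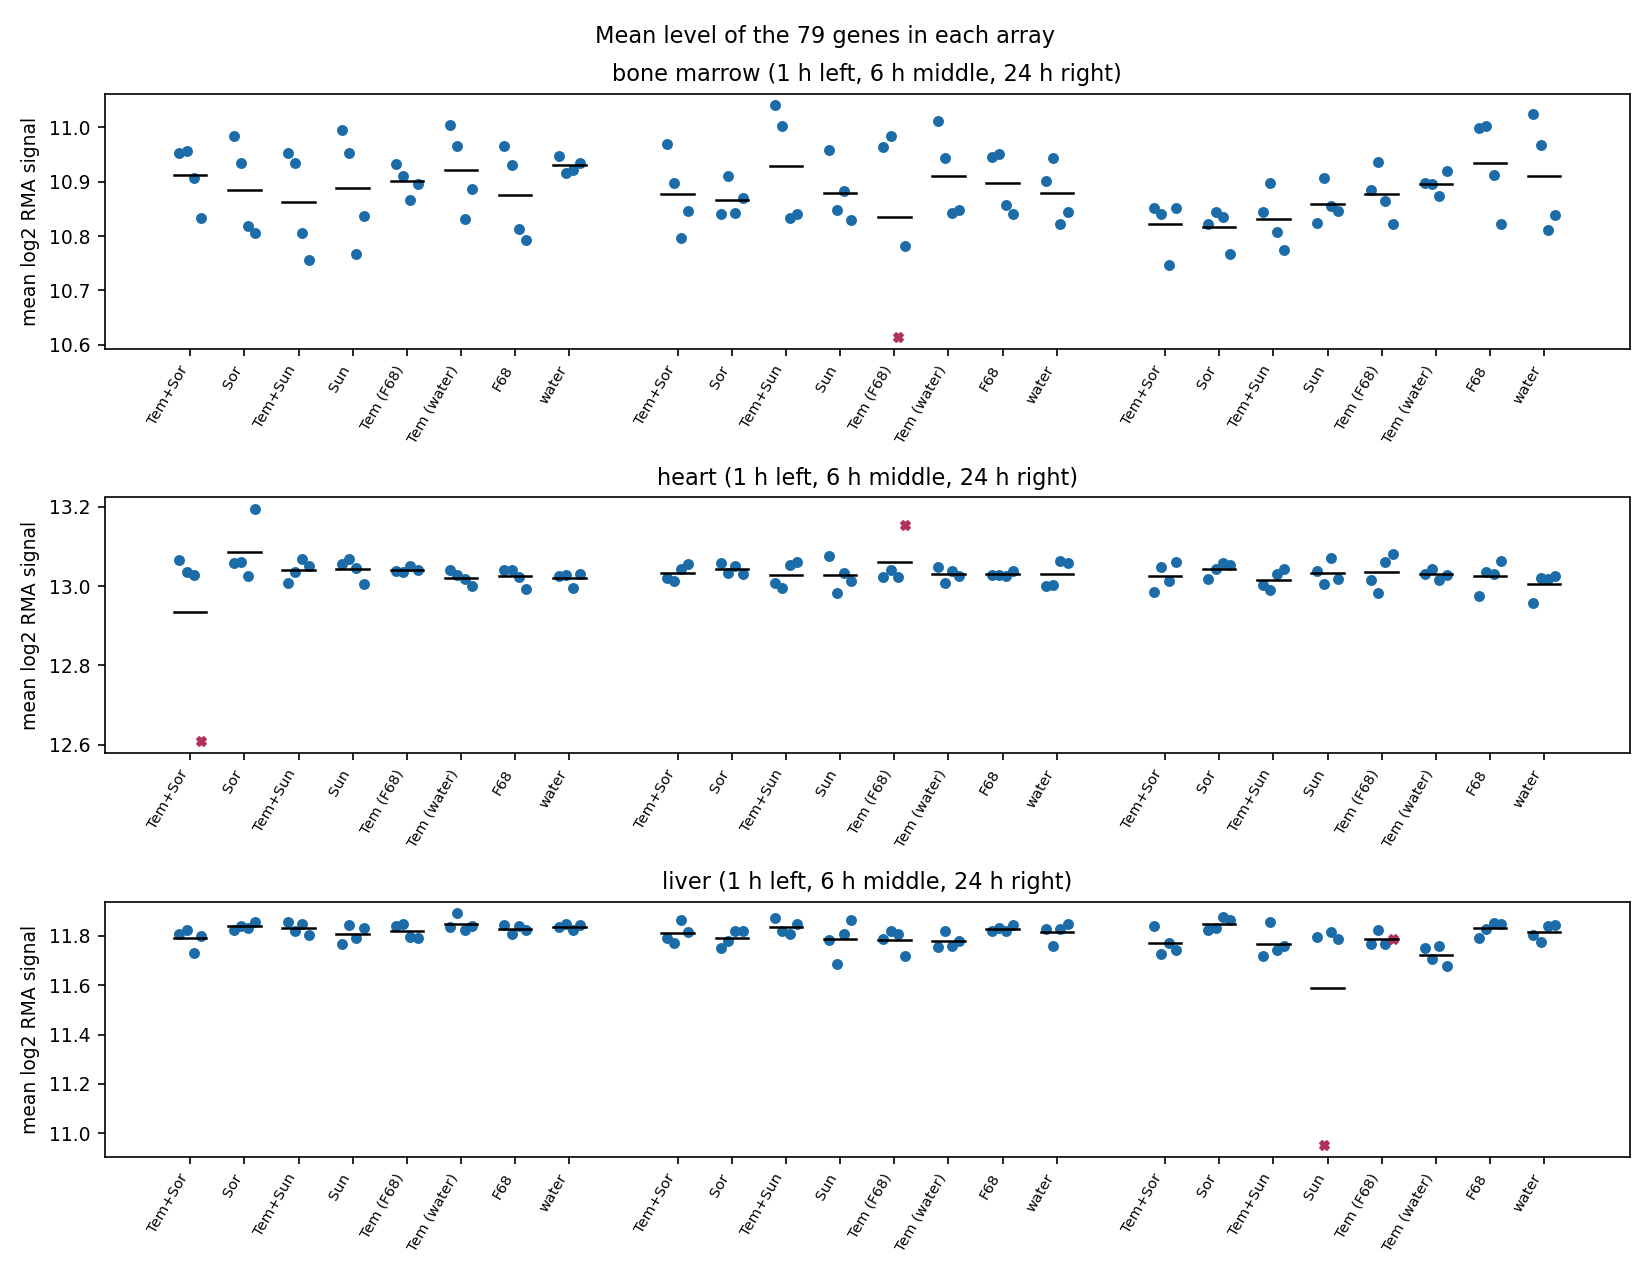
Each point is the mean log2 RMA signal over the 79 genes in 1 array (y axis), by treatment and time (x axis; Tem temsirolimus, Sor sorafenib, Sun sunitinib, F68 and water the oral vehicles after TEM vehicle); bars are means of 4 rats and crosses the 5 arrays that stood apart. Group means lie within 0.151 of each other in heart, 0.261 in liver and 0.116 in marrow, and the widest departures are those of single arrays.

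Each drug alone was set against the vehicle it was dissolved in, at 3 times and in 3 tissues, which made 27 comparisons in the fits of all genes with limma (4 rats per side, 8 for temsirolimus, which was averaged over both oral vehicles). In 21 of them 0 members had a Benjamini-Hochberg adjusted p under 0.05, with 0 to 23 members at an unadjusted p under 0.05. In the other 6, 44 members were called in at least 1 comparison, and 12 in at least 1 other than sunitinib at 24 h in liver. The 6 were sorafenib at 24 h in marrow, sorafenib at 1 and 6 h and sunitinib at 24 h in heart, and temsirolimus and sunitinib at 24 h in liver. Leaving out sunitinib in liver at 24 h, the median change over members was at most 0.132 log2 units in size in any comparison. The count of 23 was that of temsirolimus at 6 h in marrow, where 3191 of all 14218 genes had an unadjusted p under 0.05. Without the marrow array of 4M45, which is in that comparison, 6 members had such a p.

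Among all genes, the shares called were 0, 0 and 0.352% for temsirolimus in marrow at 1, 6 and 24 h, 0, 0 and 0.00703% for sunitinib and 0, 0.0211% and 3.7% for sorafenib. In heart they were 0.0141%, 0.183% and 0.317% for temsirolimus, 0, 2.45% and 3.58% for sunitinib and 1.81%, 2.98% and 0.352% for sorafenib. In liver they were 0, 0 and 3.09% for temsirolimus, 0, 0.12% and 9.99% for sunitinib and 0, 0.225% and 0.0563% for sorafenib. Sunitinib at 6 h in heart, for example, called 349 of all genes and 0 of 79 members, 3 of which had an unadjusted p under 0.05.

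**Figure D4:**
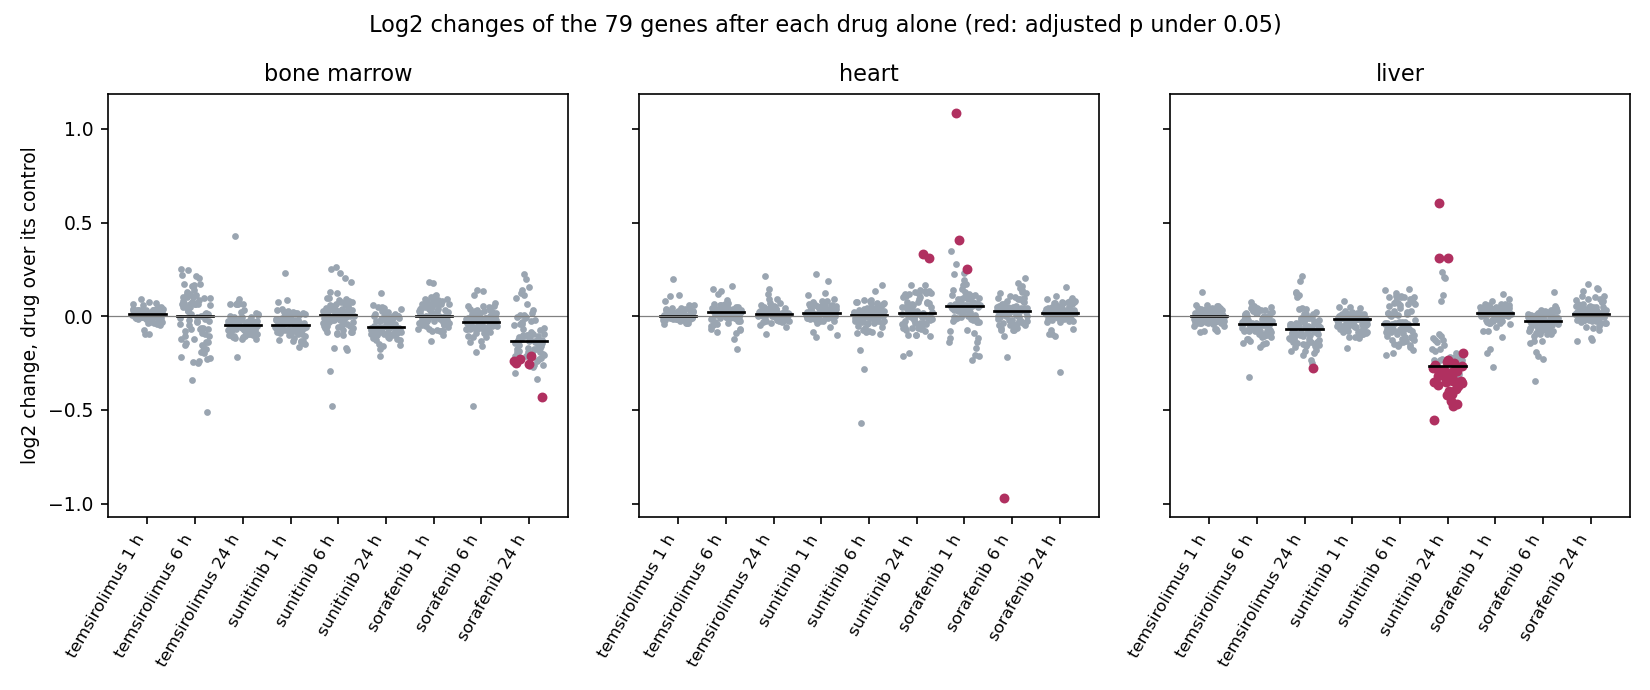
Each point is the log2 change of 1 of the 79 genes, drug over its control (y axis), for each drug alone and time (x axis) in the 3 tissues; red points have an adjusted p under 0.05 and bars are medians. Most points lie near 0, the medians of sorafenib at 24 h in marrow (-0.13) and of sunitinib at 24 h in liver (-0.26) lie lower, and the liver median is -0.02 without the arrays of rats 7M78 and 4M48.

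In bone marrow, 6 members fell and 0 rose 24 h after sorafenib (3.7% of all genes were called: 470 fell and 56 rose). The median change of the 79 members was -0.13 and 12 were above 0, against a median of 0.00 over all genes, and 25 members had an unadjusted p under 0.05. Uqcr11, a small subunit of complex III, had signals of 10.95, 11.05, 10.90 and 10.76 in sorafenib rats, against 11.46, 11.44, 11.27 and 11.23 in rats given F68/PG/PEG400. All sorafenib rats lay below all controls. It fell by 0.43 on the log2 scale (SE 0.06, limma adjusted p = 2.02e-06).

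The other 5 genes fell by less. Ndufa4 had 11.97, 12.06, 12.11 and 11.97 in sorafenib rats, against 12.34, 12.40, 12.21 and 12.18 in controls, a change of -0.25 ± 0.05 (SE, limma adjusted p = 0.00196). Atp5mc3, whose promoter is printed above, had 12.45, 12.46, 12.52 and 12.42 in sorafenib rats, against 12.63, 12.73, 12.77 and 12.70 in controls (-0.25 ± 0.06, limma adjusted p = 0.00932). Atp5f1a, the alpha subunit of the F1 head, had 13.01, 12.99, 12.94 and 12.84 in sorafenib rats, against 13.25, 13.28, 13.13 and 13.08 in controls (-0.24 ± 0.05, limma adjusted p = 0.00396). Atp5po, a stalk subunit of the ATP synthase, fell by 0.23. In these 4 genes too the groups did not overlap. Ndufa9, an accessory subunit of complex I, fell by 0.21, and its groups overlapped.

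By complex, changes were negative in 30 of 33 members of complex I (median -0.14), 4 of 4 of complex II (-0.18), 7 of 7 of complex III (-0.20), 15 of 16 of the ATP synthase (-0.18) and 11 of 19 of complex IV (-0.01). Of the 19 complex IV members, 7 had a mean signal under 6 in marrow, against 0 in the other complexes. The complex IV median is therefore not a like measure. Without the marrow array of 4M45, which belongs to another group and time but enters the common estimate of the spread, 28 members fell and 0 rose (12% of all genes called), with the same changes and smaller errors. Among those added were Ndufs1 (-0.34), Atp5f1e (-0.30) and Ndufb3 (-0.27). Leaving out 1 rat of the comparison gave 3 to 10 members called. The 3 were without rat 8M96 of the sorafenib group (211 of all genes called) and the 10 without rat 2M24 of the control (525 of all genes). Leaving out a replicate number in all groups gave 1 without number 1 or 2 and 18 without number 3. Within the array sets, with 2 rats per side, the median change was -0.20 in the first and -0.07 in the second.

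The control group bears on this result. Of the 24 marrow groups the sorafenib group had the lowest mean over members, 10.82, and its F68/PG/PEG400 control the highest, 10.93. Set against rats given TEM vehicle and water instead, the median change after sorafenib was -0.11 and 14 members were above 0, but only Uqcr11 was called (-0.26 ± 0.06, limma adjusted p = 0.0174, 0.499% of all genes called). Water and F68/PG/PEG400 differ by the oral vehicle, and that comparison called 0 members at 24 h.

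Markers of marrow cells were read beside these values. The 5 measured neutrophil markers averaged 13.67, 13.72, 13.46 and 13.50 in sorafenib rats, against 13.52, 13.40, 13.41 and 13.55 in controls. The 8 erythroid markers averaged 13.32, 13.11, 13.31 and 13.26 in sorafenib rats, against 13.20, 13.22, 13.11 and 13.07 in controls. The groups overlapped in both. 1 of the 8 erythroid markers was called, higher, as was 1 of 7 adipocyte markers, and 0 of the neutrophil, macrophage and endothelial lists, whose endothelial median was -0.25. Their part in the fall of the subunits was not tested.

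The assembly factors, which build the complexes but are not part of them, moved the same way in marrow after sorafenib. Of 40 measured, 10 fell and 0 rose, with a median of -0.18. The largest falls were those of Sdhaf4 (-0.52 ± 0.12, SE) and Sdhaf3 (-0.49 ± 0.12), both for complex II, Ndufaf4 for complex I (-0.47 ± 0.10) and Bcs1l, which inserts the iron-sulfur protein of complex III (-0.44 ± 0.10). Of 11 tricarboxylic acid cycle enzymes only Idh3b fell (-0.27, list median -0.18). Of 6 carriers and subunits outside the symbol rule, Ndufab1, the acyl carrier protein of complex I, fell by 0.37. Of 17 regulators of mitochondrial genes Tfam, which packages and transcribes mitochondrial DNA, fell by 0.31.

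The same genes were read in marrow where temsirolimus was given before sorafenib. Uqcr11 had 11.04, 10.99, 10.93 and 11.09 in rats given temsirolimus with sorafenib, against 11.04, 11.23, 11.17 and 11.10 in rats given temsirolimus with F68/PG/PEG400, a change of -0.12 ± 0.06 (SE, limma adjusted p = 0.466). Its interaction with temsirolimus over the 3 times had an unadjusted p of 0.00530 and an adjusted p of 0.740. Atp5mc3 had 12.50, 12.45, 12.39 and 12.43 with both drugs, against 12.65, 12.73, 12.67 and 12.66 with temsirolimus alone, without overlap, and was the 1 member called in this comparison (-0.24 ± 0.06, limma adjusted p = 0.0340, 1.12% of all genes called). Its call was lost in 6 of the 8 fits that left out 1 of these rats.

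**Figure D5:**
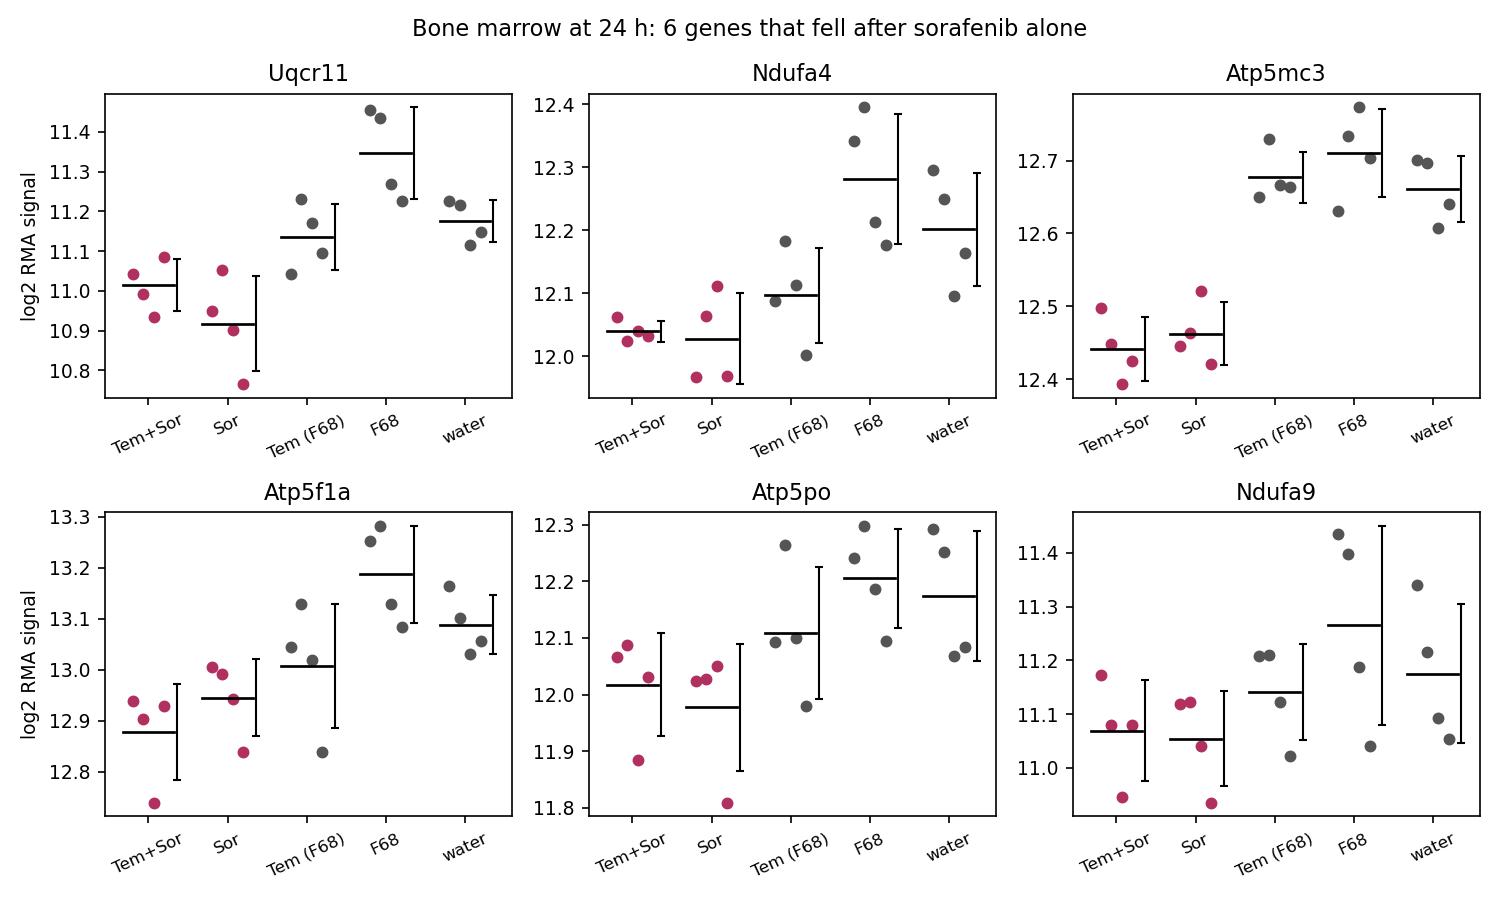
Each point is the log2 RMA signal (y axis) of 1 marrow array at 24 h for the 6 genes that fell after sorafenib alone, in rats given temsirolimus with sorafenib, sorafenib, temsirolimus with F68/PG/PEG400, F68/PG/PEG400 and water (x axis); bars are means with SD (n = 4). Sorafenib rats lie below F68/PG/PEG400 rats without overlap in all but Ndufa9.

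In marrow at 6 h, 34 members were called for sorafenib with temsirolimus against temsirolimus with F68/PG/PEG400, the control group that holds the array of 4M45 (22.1% of all genes). Without that array 0 members and 0 of all genes were called by limma, and without rat 6M70 of the treated group 0 members and 4 of all genes.

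In heart, 3 members rose and 0 fell 1 h after sorafenib (1.81% of all genes). Ndufb1, an accessory subunit of complex I, had 13.34, 13.24, 13.27 and 13.57 in sorafenib rats, against 13.16, 13.16, 13.02 and 13.07 in controls (0.25 ± 0.07, SE, limma adjusted p = 0.0387). The pseudogene Cox6c-ps1 had 7.23, 7.31, 7.26 and 7.77, against 7.05, 6.96, 6.95 and 6.99 in controls (0.41 ± 0.12, limma adjusted p = 0.0492). The dim probe set of Cox5a had 9.45, 8.95, 9.36 and 8.47, against 8.18, 8.09, 7.98 and 7.64 in controls (1.09 ± 0.26, limma adjusted p = 0.0371). No groups overlapped in these 3 genes. Of the 4 sorafenib rats, 8M92 had the highest mean over members of all heart arrays, 13.19. Leaving out 1 rat gave 0 to 6 members called, with 0 without 8M85, 2M19 or 2M20, 1 without 8M92 and 6 without 8M91. Of all genes 37 were called without 8M85, 1 without 2M19, 1 without 2M20, 58 without 8M92 and 615 without 8M91.

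At 6 h after sorafenib the same Cox5a set was lower in heart and was the 1 member called (2.98% of all genes). It had 7.83, 8.04, 7.17 and 7.27 in sorafenib rats, against 8.84, 8.96, 8.35 and 8.04 in controls (-0.97 ± 0.26, SE, limma adjusted p = 0.0226). The lowest control and the highest sorafenib rat were at the same level. The call was lost without each of 6 of the 8 rats. The brighter probe set of Cox5a, shared with another symbol, stayed between 14.07 and 14.19 in sorafenib rats at 1 h, against 14.15 to 14.18 in controls.

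Without the heart arrays of 6M68 and 4M46, neither of which belongs to the sorafenib comparison at 1 h, 13 members rose and 5 fell (10.3% of all genes called). Those that rose included Atp5if1 (0.35), the inhibitor of the ATP synthase, and Ndufa2 (0.23), Atp5mpl (0.22) and Ndufa3 (0.19). Those that fell were Ndufs1 (-0.23), Uqcrc2 (-0.21), Ndufv1 (-0.21), Atp5f1a (-0.14) and Uqcrc1 (-0.12). That fit kept the array of sorafenib rat 8M92. With all arrays the median change over members was 0.055, and without 8M92 alone it was -0.003. Within the array sets, with 2 rats per side, it was 0.0006 in the first and 0.09 in the second, which holds 8M92. Of 17 regulators, Ppargc1a, a coactivator known to raise mitochondrial genes, and Tfb2m were called after sorafenib. Ppargc1a changed by -0.59 ± 0.17 at 1 h (limma adjusted p = 0.0479) and by 0.59 ± 0.17 at 6 h (limma adjusted p = 0.0352). Tfb2m changed by 0.35 ± 0.10 at 6 h (limma adjusted p = 0.0338), and by 0.34 ± 0.10 at 6 h after sunitinib (limma adjusted p = 0.0479).

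Sunitinib at 24 h in heart raised 2 members and lowered 0 (3.58% of all genes called). Ndufb8 had 12.25, 12.29, 12.40 and 12.10 in sunitinib rats, against 11.43, 12.09, 12.04 and 12.13 in rats given water (0.33 ± 0.09, SE, limma adjusted p = 0.0234). Sdhd, a membrane anchor of complex II, had 13.59, 13.55, 13.55 and 13.48, against 12.79, 13.46, 13.26 and 13.43 in rats given water (0.31 ± 0.08, limma adjusted p = 0.0279). The lowest control in both was rat 1M5, and without it 0 members were called, as without 1M11 of the controls or 7M78 or 7M83 of the sunitinib rats. Of all genes 7 were called without 1M5, 11 without 1M11, 255 without 7M78 and 0 without 7M83. A second probe set of Sdhd ran from 13.32 to 13.56 over all 24 vehicle heart arrays, with no value as low as 12.79 or 13.26. The rise of Sdhd thus rests on 1 of its probe sets, and the change of the second is not given here. Of the assembly factors Ndufaf1 was called (0.47 ± 0.13).

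Each drug was also compared beside the other agent at each time and in each tissue, and only some of these comparisons are described. In heart, Ndufa4l2 was called when sorafenib followed temsirolimus. At 24 h it had 7.54, 7.77, 7.89 and 7.84 in rats given temsirolimus with sorafenib, against 8.22, 8.35, 8.37 and 8.45 in rats given temsirolimus with F68/PG/PEG400. The groups did not overlap, and it fell by 0.59 on the log2 scale (SE 0.10, limma adjusted p = 0.000182), the 1 member called there (0.858% of all genes). It was called in each of 8 fits that left out 1 of these rats, with changes of -0.62 to -0.52. After sorafenib alone it had 7.84, 8.11, 7.71 and 7.94, against 8.01, 8.29, 8.22 and 8.28 in controls, a change of -0.30 ± 0.10 (limma adjusted p = 0.381). At 1 and 6 h after sorafenib alone its changes were 0.13 and -0.07. The rats given sorafenib with and without temsirolimus overlapped at 24 h. The interaction of sorafenib with temsirolimus called 0 members in heart, so the fall of Ndufa4l2 was not shown to differ with temsirolimus. Cox4i2, the other member known for hypoxia, had 6.81, 7.06, 6.86 and 6.53 with both drugs, against 6.93, 6.92, 7.01 and 7.12 with temsirolimus, and the groups overlapped. Sorafenib alone lowered 5 of 8 macrophage markers in heart at 24 h (list median -0.88), and the endothelial median was -0.16 with 0 of 6 called. The part of these cells in the Ndufa4l2 signal was not tested. Over all members, sorafenib alone at 24 h in heart called 0, with 1 at an unadjusted p under 0.05, and 4 when set against water in place of its own vehicle (5.3% of all genes called).

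In heart at 6 h, Sdha was the 1 member called for sorafenib with temsirolimus (0.30 ± 0.08, SE, limma adjusted p = 0.0339, 2.19% of all genes). Its call was lost without rat 4M46, whose heart array stood apart, and without each of 3 rats of the treated group.

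In liver, temsirolimus at 24 h lowered 1 member (3.09% of all genes called). Ndufs3, a core subunit of complex I, had 11.73, 11.75, 11.91 and 11.79 after temsirolimus with water and 11.94, 11.81, 11.86 and 11.42 after temsirolimus with F68/PG/PEG400, against 12.01, 11.93, 12.14 and 12.09 in TEM vehicle rats with water and 12.02, 12.04, 12.14 and 12.05 in those with F68/PG/PEG400. It fell by 0.28 (SE 0.08, limma adjusted p = 0.0360). Only 1 temsirolimus rat lay above the lowest control, and the lowest value, 11.42, was that of 4M48, whose liver array stood apart. Without that array alone 0 members were called, with 250 of all genes called and a median over members of -0.08. The hepatocyte marker Tat, a tyrosine aminotransferase, was called as well (-0.75 ± 0.23, limma adjusted p = 0.0497), 1 of 14 such markers, and its part in the result was not tested. The median over members was -0.07 (all genes 0.01), 14 members were above 0, and 20 had an unadjusted p under 0.05.

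Without the liver arrays of 4M48 and 7M78, 15 members fell after temsirolimus and 0 rose (5.82% of all genes called), with a median of -0.08. The largest falls were those of Atp5if1 (-0.24 ± 0.07, SE), Ndufa12 (-0.23 ± 0.05), Ndufs3 (-0.22 ± 0.04, limma adjusted p = 0.000233) and Ndufs1 (-0.21 ± 0.07). With all arrays, the changes were negative in 27 of 33 members of complex I, 16 of 16 of the ATP synthase, 7 of 7 of complex III, 3 of 4 of complex II and 12 of 19 of complex IV. Of these 19, 5 had a mean signal under 6 in liver. Within rats given water alone, or F68/PG/PEG400 alone, 0 members were called, and the call of Ndufs3 was lost in 11 of 16 fits that each left out 1 rat. The assembly factors Ndufaf7, an arginine methyltransferase of complex I (-0.50 ± 0.07), and Ndufaf5 (-0.36 ± 0.08) fell, as did the regulator Tfb1m (-0.32 ± 0.09), with 0 of 11 tricarboxylic acid cycle enzymes called.

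Sunitinib at 24 h in liver called 37 members, 34 lower and 3 higher (9.99% of all genes), and these calls rest on 1 array. Atp5if1 had 10.07, 8.52, 10.05 and 10.18 in sunitinib rats, against 10.21, 9.97, 10.36 and 10.49 in rats given water. Sdha had 12.22, 11.04, 12.17 and 12.07, against 12.10, 12.16, 12.25 and 12.05 in rats given water. The low value in both was that of rat 7M78, while its 3 group mates lay within the control range. Without the arrays of 7M78 and 4M48, 0 members and 0 of all genes were called, and the median over members was -0.02. Leaving out 1 rat of the comparison gave 0 to 75 members called, the 75 without 7M77 of the sunitinib rats (6210 of all genes called), with 0 also without 1M5, 1M6 or 1M11 of the controls. In the liver array of 7M78 the hepatocyte markers averaged 14.11 (liver median 14.47), the macrophage markers 8.96 (10.38), the endothelial markers 8.02 (8.70), the cardiac markers 6.55 (5.91) and the skeletal muscle markers 6.67 (6.02), and their part in the result was not tested. Among the members called with all arrays, Ndufb7, Ndufs8 and Ndufb10 were lower by 0.48, 0.47 and 0.45, and Cox5a, Ndufa4l2 and Cox4i2, dim in liver, were higher by 0.60, 0.31 and 0.31.

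In liver at 24 h, 4 members were called for temsirolimus with an oral drug against the oral drug alone (7.86% of all genes), a comparison whose control holds the array of 7M78. Without it none of the 4 was called, but 2 other members were (492 of all genes called). The median over members was then -0.07, against 0.03 to 0.10 in the fits that left out another rat of the comparison.

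F68/PG/PEG400 was set against water at each time with 8 rats per side, and limma called 0 members in 9 comparisons, with 0 to 25 at an unadjusted p under 0.05. The count of 25 was that of marrow at 6 h, where 4305 of all 14218 genes had such a p. Without the marrow array of 4M45, which is in that comparison, 1 member had such a p. Among all genes 0.176% were called in marrow and 0.218% in liver at 6 h and 0 elsewhere. In vehicle rats 6 h and 24 h were set against 1 h, and limma called 0 members in 6 comparisons, with 0 to 3 at an unadjusted p under 0.05. Among all genes the shares for 6 h and 24 h were 0.0703% and 0.00703% in marrow, 1.08% and 0.661% in heart and 2.71% and 0.113% in liver. Without the arrays of 4M48 and 7M78, Atp5me, a small membrane subunit of the ATP synthase, was called for 6 h against 1 h in liver (-0.10 ± 0.03, SE, limma adjusted p = 0.0293, 8.33% of all genes called). The interaction of each oral drug with temsirolimus over the 3 times called 0 members and 0 of all genes in 6 F tests, with 0 to 29 members at an unadjusted p under 0.05. The count of 29 was that of sunitinib in liver, where 919 of all 14218 genes had such a p. Without the liver arrays of 7M78 and 4M48, 13 members had such a p. The smallest unadjusted p values were 0.00165 for Atp5mpl (sorafenib, heart, limma adjusted p = 0.258) and 0.00366 for Ndufs7 (sunitinib, liver, limma adjusted p = 0.718).

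Whether a drug acted differently in 2 tissues was asked on the difference of the tissues within a rat. Over 9 comparisons each for heart minus liver and heart minus marrow, members were called in 2. For sorafenib at 24 h the change in heart was higher than that in marrow in 2 members, Uqcr11 (0.36 ± 0.08, SE, limma adjusted p = 0.00854) and Atp5f1a (0.26 ± 0.07, limma adjusted p = 0.0417), with 1.06% of all genes called, and without the 5 arrays in 20 members, with 1 lower (4.97% of all genes called). For sunitinib at 24 h the change in heart was higher than that in liver in 15 members, 2.81% of all genes being called, and in 0 without the 5 arrays (0.302% of all genes called), where 5 had an unadjusted p under 0.05.

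In the other comparisons of heart minus liver limma called 0 members, with shares of all genes of 0, 0 and 0.295% for temsirolimus at 1, 6 and 24 h, 0 and 0.0281% for sunitinib at 1 and 6 h and 0.0141%, 0.281% and 0.0703% for sorafenib. For heart minus marrow the shares were 0.00703%, 0.0281% and 0.0141% for temsirolimus, 0, 0.00703% and 0.549% for sunitinib and 0.0211% and 0.633% for sorafenib at 1 and 6 h, again with 0 members called. In these 16 comparisons 0 to 18 members had an unadjusted p under 0.05. The count of 18 was that of temsirolimus at 6 h for heart minus marrow, where 2583 of all 14218 genes had such a p. Without the 5 arrays that count was 0.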

How the data were processed

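The deposited values are log2 RMA signals that the authors computed from the scanned arrays, 1 per probe set, and were used as deposited. The RMA version is not given in the sources used here. Array signals carry no sequencing depth, so precision rests on how many rats were used. Of 31099 probe sets, 20832 had 1 symbol in the platform annotation, and the probe set with the highest mean per gene and tissue was kept (14218 genes). Members, gene lists and motifs were chosen with earlier results of these data known.

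With R 4.3.3 and limma 3.58.1, a separate fit per tissue estimated 24 group means, with the array set at each time as 3 further terms, since a number in the array names largely parts 2 rats of each group from the other 2. Set and dosing day cannot be told apart. Genes with a Benjamini-Hochberg adjusted p under 0.05 over all genes were called. Tissues were compared within a rat, whose heart and liver residuals correlated above 0 in 91 of 96 rats (median r 0.137) and heart and marrow in 71 (median 0.0761). The fit was tested on simulated data. Named members were up to 4 rises and 4 falls by size among those called, the smallest p in F tests, the paired isoforms and up to 4 called genes of related lists. Others were chosen after their values were seen.

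Alternatives were a mean signal of at least 6, renewed quantile normalization, no array-set terms, the mean of probe sets, omission of each replicate number and of 5 arrays, 1 oral vehicle alone, and no rat block. Fits with a further covariate were also run, the mean of the hepatocyte markers in heart and the mark N2 in marrow. Some titles of marrow arrays carry that mark, and its meaning is not given in the sources used here. After the data were seen, 3 more were chosen: omission of single arrays, water as control of sorafenib at 24 h, and tissue differences without the 5 arrays.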

Additional observations from a re-analysis of the deposited data

Results flagged for a closer look

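The mean signal of the members in a rat stood apart from the 3 others of its group in 6 of 72 groups (chance flags about 1 in 20). These were 12.609 in the heart of rat 6M68 (temsirolimus with sorafenib, 1 h), 13.153 in the heart of 4M46 (temsirolimus with F68/PG/PEG400, 6 h), 12.958 in the heart of 1M5 and 12.995 in that of 1M7 (TEM vehicle with water, 24 h and 1 h), 10.952 in the liver of 7M78 (sunitinib, 24 h) and 10.746 in the marrow of 6M71 (temsirolimus with sorafenib, 24 h). Among 38 groups of single genes whose values are printed, 4 held such a rat: Cox6c-ps1 at 7.774 in the heart of 8M92, Ndufb8 at 11.428 in the heart of 1M5, and Atp5if1 at 8.515 and Sdha at 11.039 in the liver of 7M78.

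The response to a drug differed between tissues of the same rats for 15 members after sunitinib at 24 h (heart minus liver) and 2 members after sorafenib at 24 h (heart minus marrow). After sunitinib the largest differences were 0.598 for Ndufb8, 0.594 for Ndufb10, 0.556 for Ndufs3 and 0.543 for Ndufs8 on the log2 scale, and without the 5 arrays 0 of the 79 members were called. After sorafenib the differences were 0.363 for Uqcr11 and 0.265 for Atp5f1a.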

How the results depend on the processing

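Of the counts of members called, 496 stayed within 1.5 times and 87 did not. In the main fits 21 of 27 drug comparisons called 0 members, as did all those of oral vehicle, time and interaction. A count that stayed can thus be 0 in both fits, and the tally is no measure of how stable the calls are. None of the named genes changed direction. Counted once for each named result in each alternative, the call was kept 101 times and lost 69 times. Without the 5 arrays the counts were 28 in place of 6 for sorafenib in marrow at 24 h, 18 in place of 3 for sorafenib in heart at 1 h, 15 in place of 1 for temsirolimus in liver at 24 h and 0 in place of 37 for sunitinib in liver at 24 h, and in place of 0 they were 2 for temsirolimus in marrow at 24 h and 1 each for temsirolimus and sorafenib in liver at 6 h and for 6 h against 1 h in liver. For heart minus liver they were then 0 for sunitinib at 24 h, 3 for sorafenib at 1 h and 2 for temsirolimus at 24 h, and for heart minus marrow 21 for sorafenib at 24 h. A renewed quantile normalization gave 1 for sunitinib in heart, 7 for temsirolimus and 0 for sunitinib in liver, all at 24 h, and over all arrays 2 members lower in heart than marrow, 36 higher and 5 lower in liver than marrow. Without array-set terms sorafenib in heart called 0 at 1 h and 0 at 6 h. The mean of probe sets gave 2 for temsirolimus in liver at 24 h, where water alone and F68/PG/PEG400 alone gave 0 each. Temsirolimus in marrow at 6 h gave 28 within F68/PG/PEG400 alone, a group that holds 4M45. Without the block of the rat, sorafenib at 24 h gave 5 for heart minus marrow, and no other call count moved past 1.5 times. Against water, sorafenib at 24 h gave 1 in marrow and 4 in heart.

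Leaving out a replicate number or 1 rat gave 1 to 18 members for sorafenib in marrow at 24 h, 0 to 6 and 0 to 1 for sorafenib in heart at 1 h and 6 h, 0 to 9 for sunitinib in heart, 0 to 21 for temsirolimus and 0 to 75 for sunitinib in liver at 24 h, 0 to 2 for the oral vehicle in marrow and for temsirolimus in liver at 6 h. The cause of these shifts was not tested. Members with a mean signal under 6 and the dim Cox5a set limit what could be seen of them.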
